A study of Dunaliella salina with 9 samples.

Results

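The comparison described here set Dunaliella salina cells moved to strong light against cells moved to moderate light. Dunaliella salina is a unicellular green alga of saline waters without a rigid cell wall. All cultures came from an irradiance of 150 µmol photons m⁻² s⁻¹ at 22 °C, with a daily cycle of 16 h light and 8 h dark, and were transferred to fresh medium in mid-exponential growth. How long after the shift they were harvested is not stated in the labels. The shift was made in a single step, to 600 in the 3 ML libraries and to 1500 in the 3 HL libraries, in the same unit of irradiance. The 3 libraries at 150 (LL) were not part of the comparison and are given as levels beside it. The transcripts described were the clusters, the units in which the authors listed their counts, that had at least 10 counts in 3 or more of the 6 ML and HL libraries. There were 32773 of them among the 76875 listed. Just inside this limit were 3661 clusters that reached 10 counts in exactly 3 libraries, with a median sum of 71.2 counts over the 6, and just outside it 3086 that did so in 2, with a median sum of 47.

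Light that exceeds what photosynthesis can use makes green algae change their light-harvesting antenna, the repair of photosystems, the disposal of excess energy and the removal of reactive oxygen. Dunaliella salina is known for storing large amounts of beta-carotene under strong light and for making glycerol to balance the salt outside. Setting HL against ML asks how the transcript profile differs between 2 irradiances that were both above the one the cells came from. The files do not pair the clusters with gene names or sequences, so no cluster could be assigned to any of these functions, and the identity of the alga or of the treatments could not be checked with a marker gene. The clusters are described by their levels, their sizes of difference, their length and their identifiers.

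The 6 libraries were of like depth, with 18451243 to 19535140 counts in ML and 18799637 to 19643714 in HL, and the selected clusters held 99.3% to 99.6% of them. The second ML library, ML2, had 33800 clusters with at least 10 counts, against 32587 and 32212 in the other ML libraries and 29607 to 29945 in HL. Levels are given as CPM, counts scaled to library size with TMM factors, a correction for differences in library composition. Any 2 libraries of a group differed by a median absolute log2 value of 0.155 to 0.168 in ML and 0.158 to 0.162 in HL, on the log2(CPM + 1) scale. An ML and an HL library differed by 0.597 to 0.664. The labels do not say whether replicates came from separate cultures, and p-values therefore refer to the spread among these libraries, which may be technical. Levels are relative to all RNA of a bulk culture, so that fewer cells of a kind and less RNA per cell cannot be told apart.

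Most of the clusters were at different levels in strong and in moderate light, in nearly equal numbers each way with TMM scaling. In edgeR's quasi-likelihood test, HL exceeded ML in 9889 clusters and fell short of it in 10136, at a Benjamini-Hochberg adjusted p below 0.05. These calls made up 61.1% of the selected clusters. Over all 34555 clusters in the fit, which include those seen only in LL, 58.7% were called, 28.8% higher and 29.9% lower. The selected clusters make up nearly all of that background. The median log2 fold change was −0.06, with lower and upper quartiles of −1.03 and 0.72.

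The split between the directions depended on how the libraries were scaled. TMM scaling brings the trimmed average log ratio between libraries near 0, so a near-even split is in part set by it. Its factors were 1.03 to 1.1 in ML and 0.905 to 0.928 in HL. With library totals alone, 7814 clusters were higher and 12067 lower, so that 39.3% of the calls were rises, against 49.4% with TMM scaling, and the median log2 fold change moved to −0.26. Limma on log2(FPKM + 1), where levels are likewise scaled by library totals, gave 39%. Of single clusters, 17950 of the 20025 calls were also called in the same direction with library totals alone, and 4 in the opposite direction. The selection itself also bears on the split. Of the selected clusters, 1755 had at least 10 counts in every ML library and in no HL library, and 638 had the reverse, and these could pass the selection through one group alone. Without both kinds, 9348 clusters were higher and 8876 lower, and the median log2 fold change was 0.00. Clusters at 10 counts in all libraries of one group and in 1 or 2 of the other stayed in. One group alone could admit these as well. They numbered 1467 and 1782 with all ML libraries, and 648 and 1050 with all HL libraries.

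**Figure D1:**
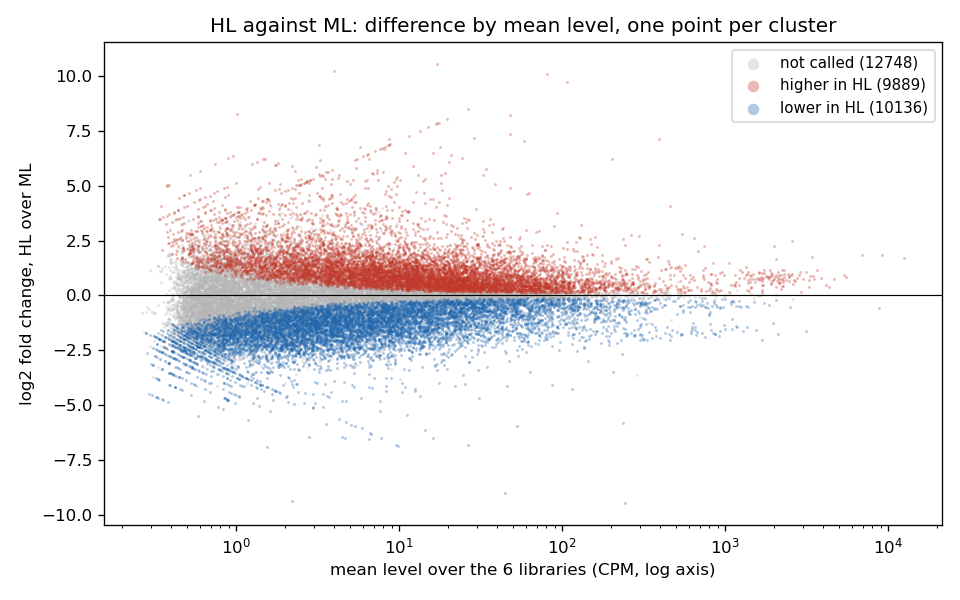
Each point is one of the 32773 clusters, with its mean CPM over the 6 libraries on the log horizontal axis and its log2 fold change of HL over ML on the vertical axis; red and blue mark calls at an edgeR adjusted p below 0.05. Small differences are called only at higher levels, and 12748 clusters, mostly at low levels, were not called.

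The ML and HL values of many clusters did not overlap at all. All 3 HL libraries lay above all 3 ML libraries in 11203 clusters, 34.2% of those selected (32.9% of all in the fit), and below them in 11916, or 36.4% (35.3% of all in the fit). Together these were 70.5% of the clusters, and 19847 of the 23119 were also called.

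Falls from ML to HL outnumbered rises between 2-fold and 8-fold, and with TMM scaling and all libraries rises outnumbered falls below and above that. At least 2-fold differences were found in 4860 clusters that were higher in HL, where 14.3% of all fitted clusters passed, and in 6835 that were lower, where 20.3% passed. Under 2-fold, 5029 calls were higher and 3301 lower. Between 4-fold and 8-fold, 859 were higher and 1751 lower. Above that, 555 clusters rose 8-fold or more (1.68% of all in the fit) and 419 fell as much (1.33%), an order that flipped to 461 and 568 with library totals alone. It also flipped without any 1 of the HL libraries, to 526 and 598, 506 and 515, and 510 and 577 with each of them left out in turn. Rises of 32-fold or more were 120 and such falls 35, where a cluster without any count in one group entered at the lowest fold that its counts allow. With the fitted values, which for such clusters depend on the model's prior count, the numbers were 160 and 124. At 8-fold or more they were then 568 and 464. The runs with a library left out may hold fitted values for clusters without any count in the libraries kept. Their counts at 8-fold or more may therefore not be on the same measure as 555 and 419. Whether the order at 8-fold or more depends on single libraries was not settled.

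The size classes differed in level and in the kind of count. Rises under 2-fold had a median of 15.9 CPM in ML, 23.5 in HL and 19.7 in LL. Rises of at least 32-fold went from a median of 0.0885 CPM in ML, below the 0.141 to 0.156 CPM that 3 counts are worth in the ML libraries, to 11.7 in HL, with 1.63 in LL. Falls of at least 32-fold went from a median of 10.2 CPM in ML to 0.0387 in HL, with 1.80 in LL. Counts with decimals, which can arise when reads are divided among similar sequences, were found in 47.8% of the clusters that rose under 2-fold and in 97.5% of those that rose at least 32-fold. They were found in 100% of those that fell at least 32-fold and in 59.5% of all selected clusters. The part of such division in the largest differences was not tested.

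The LL mean lay between the ML and HL means in most classes. It did so in 61.8% of the rises and 51% of the falls under 2-fold, in 88.6% and 79.3% of those between 2-fold and 4-fold, and in 91.6% and 92.1% of those between 4-fold and 8-fold. Classes with a larger difference leave more room between the ML and HL means.

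**Figure D2:**
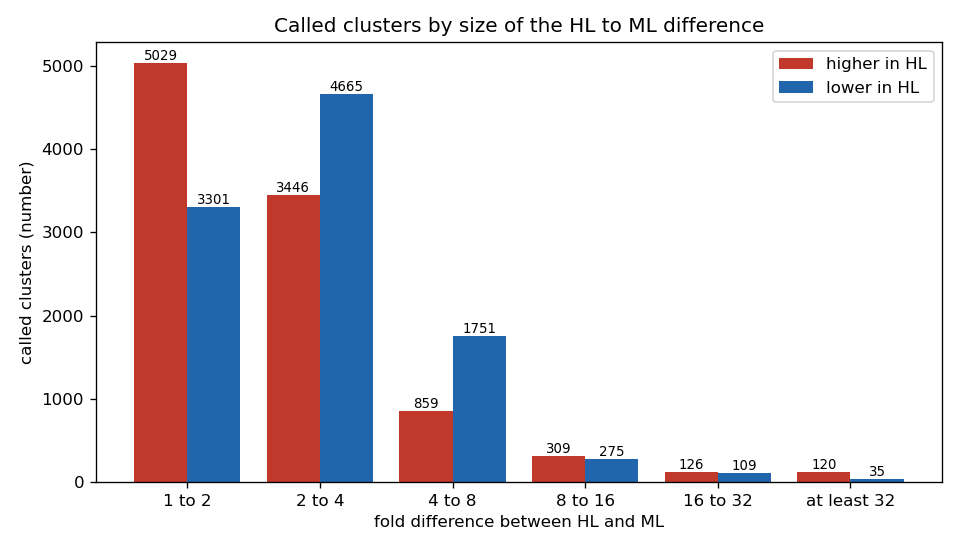
Bars give the number of called clusters, higher (red) or lower (blue) in HL than in ML, by the size of the fold difference. Falls exceed rises from 2-fold to 8-fold (4665 against 3446 and 1751 against 859). With this TMM scaling rises exceed falls below 2-fold and at 8-fold or more. The latter order flips to 461 against 568 with library totals alone. Counts without any 1 HL library also have more falls at 8-fold or more, but may not be on the same measure.

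For a smaller group of clusters, levels in strong and moderate light were alike within narrow limits. The whole 95% interval of the HL to ML difference lay within 1.5-fold for 4494 clusters, 13.7% of those selected. Of these, 1911 were called all the same, with a difference that was small but larger than the replicate spread. Most of the clusters within these limits were well expressed, with 2700 of them in the highest quintile of mean CPM and 0 in the lowest. Of the 12748 clusters that were not called, 8332 had an interval that reached past 2-fold, so the data did not settle whether they differ. In the lowest quintile, 4417 clusters were of this kind, and 56 in the highest.

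The precision behind the calls grew with level. The median standard error of the log2 fold change was 0.59 in the lowest quintile, with a median of 0.716 CPM, and 0.07 in the highest, with a median of 47.0 CPM. Replicates scattered alike in both lights. The median SD of log2(CPM + 1) was 0.193 in ML and 0.204 in HL in the lowest quintile, and 0.075 and 0.062 in the highest.

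With TMM scaling, well-expressed clusters were more often higher in strong light. The highest quintile had 3214 rises and 2084 falls, and its median log2 fold change was 0.17. The lowest had 605 rises and 1430 falls, and its median was −0.50, but 1084 of these falls and 383 of these rises were clusters that had passed the selection through one group alone. Without such clusters, 222 rises, 346 falls and a median of −0.16 were left in the lowest quintile. Most calls of that quintile were of this kind, so leaving them out removes called differences by construction. Whether the selection made its excess of falls was not tested. The highest quintile was nearly the same without the clusters selected through one group alone, at 3212 and 2083. The balance in the 2 highest quintiles turned with library totals alone, to 2442 higher and 2759 lower in the highest and 2328 and 2527 in the one below it, with medians of −0.04 and −0.03. In the lowest quintile, taking out the trends that each library showed with abundance and with length left 819 higher and 889 lower. That step takes the shift of a quintile out by construction. Leaving out any 1 of the 6 libraries lowered the falls of that quintile, to between 938 without ML2 and 1250 without the first HL library. Its rises were lowered as well, to between 438 and 508. The called share of all selected clusters went from 61.1% to between 55.4% and 57.4%. ML2 held the largest share of its counts in that quintile, 0.605% against 0.534% and 0.535% in the other ML libraries.

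Most of the 100 clusters with the highest mean CPM rose. Of these, 86 were higher in HL and 9 lower, at a median log2 fold change of 0.76, where 30.2% of all selected clusters were higher and 30.9% lower. Ranked by FPKM, the authors' level per length and depth, the top 100 gave 88 higher and 9 lower, with a median of 0.79. The excess of rises held with library totals alone (83 higher, 14 lower) and with the trends on abundance and length removed (78 and 14), where the median fell to 0.37. Of the 20 clusters with the highest mean CPM, 18 were higher in HL, by log2 fold changes of 0.38 to 1.86. The cluster ranked second went from 3640 to 4270 CPM in ML to 12500 to 15600 in HL, and stood at 5800 to 7560 in LL. The cluster ranked 18 went the other way, from 4600 to 4870 CPM in ML to 1490 to 1610 in HL, with 1800 to 2080 in LL. In neither did the ML and HL libraries overlap.

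Counts were concentrated on fewer clusters in strong light than in moderate light. The 100 leading clusters of each library took 30.2% to 31.1% of the counts in HL, 21.5% to 22.7% in ML and 24.8% to 26.5% in LL. As few as 364 to 385 clusters held 50% of the counts in HL, where 539 to 617 were needed in ML and 497 to 573 in LL. With all libraries thinned to 17778225 counts, 32044 to 33176 clusters had at least 10 counts in ML, 29054 to 29656 in HL and 29734 to 30451 in LL. ML and HL did not overlap in any of these measures. The exact two-sided permutation p of each was 0.1, which is the smallest that 3 against 3 libraries allow, and 0.1 after Benjamini-Hochberg adjustment over the 8 library measures tested. The leading clusters were also partly different ones: 6 of the top 10, 69 of the top 100 and 773 of the top 1000 in ML were in the same top list in HL.

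The gain in HL was spread over fewer clusters than the loss. Clusters called higher gained 321000 CPM in sum from ML to HL, and those called lower lost 175000 on the same TMM scale. The sums differ because TMM scaling does not hold the total constant. The gain took 104 clusters to reach 50% of its sum and the loss 259. The 3 clusters that gained most made up 9.79% of the gain, and the 3 that lost most 5.06% of the loss. The clusters called higher took 43.9% ± 0.62 of all counts in ML (SD, n = 3), 67.5% ± 0.645 in HL and 56.5% ± 0.835 in LL. The clusters called lower took 40.0% ± 0.608 in ML, 18.6% ± 0.386 in HL and 27.3% ± 0.371 in LL, so that gain and loss were of like size as shares of library totals. The direction of these shares follows from the choice of clusters.

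With TMM scaling, the difference between the lights ran with length as well as with level. A length for each cluster was worked out by dividing count by FPKM, and is called implied length because it need not be the true one: 950 clusters came out under 100 bases. Short clusters of middle and high level were higher in HL. In the highest quintile, clusters under 500 bases had a median log2 fold change of 0.64, with 276 higher and 83 lower, and clusters of at least 2500 bases had a median of −0.12, with 484 higher and 730 lower. In the lowest quintile the medians were −0.47 and −0.81, with the clusters selected through one group alone included. In the middle quintile the median ran from 0.55 under 500 bases through −0.17 and −0.42 to −0.62 at 2500 or more, so that clusters of like level differed in direction by length.

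Over all levels, rises outnumbered falls under 500 bases (2481 and 1910), a balance that flipped to 2080 and 2267 when only library totals were used. From 2500 bases on, falls outnumbered rises (1673 and 796), which flipped to 1127 and 1316 with the trends on abundance and length removed, a step that takes such shifts out by construction. As a share of all counts, the long clusters held 17.9% to 18.3% in HL, 21.4% to 22.4% in ML and 18.9% to 20.1% in LL. The short clusters held 8.41% to 8.57% in HL and 7.27% to 7.54% in ML. Neither pair of ranges overlapped (exact two-sided permutation p = 0.1 for each).

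**Figure D3:**
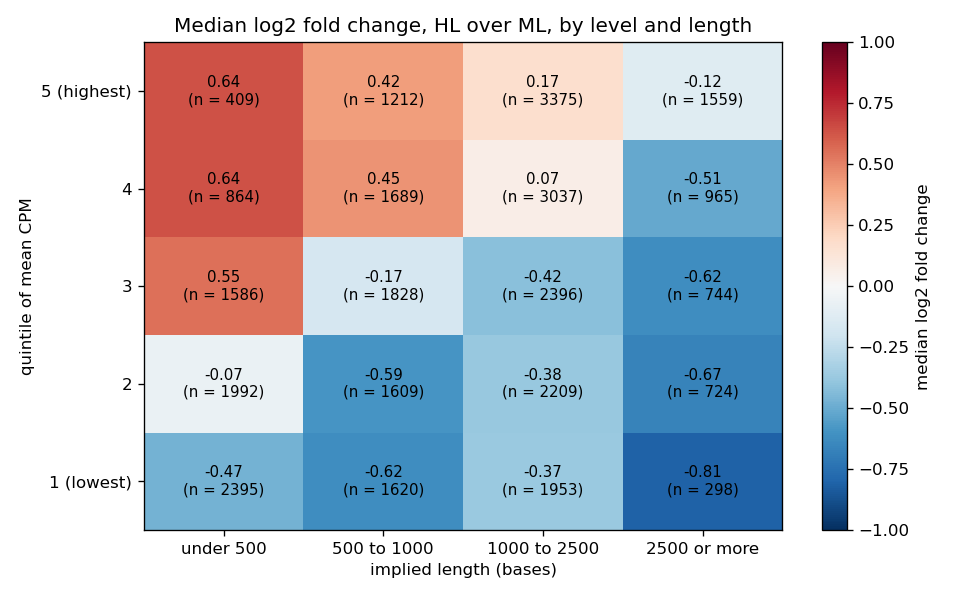
Each cell gives the median log2 fold change of HL over ML, with TMM scaling, for clusters of a mean CPM quintile (rows) and an implied length class (columns), with the number of clusters. Clusters under 500 bases in the middle and upper quintiles are higher in HL (0.55 to 0.64), and long clusters are lower at every level (−0.81 to −0.12).

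Individual clusters are shown by 4 examples, 2 rising and 2 falling from ML to HL, picked as the one with the smallest p among clusters of at least 10 CPM and the one with the largest difference in CPM. Their differences therefore follow from the choice. Cluster-5009.35659 had the smallest p among the rises. It stood at 45.3, 43.6 and 43.4 CPM in the ML libraries and at 276, 280 and 274 in HL, with 102, 96.3 and 101 in LL. The groups lay far apart and the replicates of each group close together. The log2 fold change of HL over ML was 2.65 with a standard error of 0.04 (95% interval 2.56 to 2.74, edgeR adjusted p = 1.46e-08). It moved from rank 3325 in ML to rank 497 in HL by CPM.

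Cluster-5009.33833 gained the most, and became the cluster with the most counts in HL. It stood at 5850, 5780 and 6180 CPM in ML, at 17100, 21200 and 19000 in HL, and at 10200, 7580 and 9040 in LL. HL libraries were all above the others, and ML libraries all below. Its log2 fold change was 1.69 (SE 0.11, 95% interval 1.43 to 1.94, edgeR adjusted p = 3.61e-06), and its share of all counts was 0.626% in ML and 1.74% in HL. With the trends on abundance and length removed the log2 fold change was 1.13. Its counts carried decimals in all 9 libraries.

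Cluster-5009.21025 had the smallest p among the falls. It stood at 222, 224 and 223 CPM in ML and at 53.0, 52.5 and 52.5 in HL, with 77.4, 83.1 and 82.0 in LL. No ML library came near the range of the other groups. The log2 fold change was −2.08 (SE 0.04, 95% interval −2.17 to −2.00, edgeR adjusted p = 2.28e-08).

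Cluster-5009.34198 lost the most in CPM and was the leading cluster of the ML libraries. It stood at 10900, 9210 and 11200 CPM in ML, at 6710, 7790 and 6910 in HL, and at 3340, 2910 and 3400 in LL. It was thus highest in moderate light, and its HL libraries lay between those of ML and LL. The log2 fold change of HL over ML was −0.55 (SE 0.09, 95% interval −0.77 to −0.34, edgeR adjusted p = 0.000966). The value was −0.76 when only library totals were used, −0.82 with limma on log2(FPKM + 1) and −1.66 with the trends on abundance and length removed. Its implied length was 81 bases, and its FPKM in ML was 119000 to 148000.

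**Figure D4:**
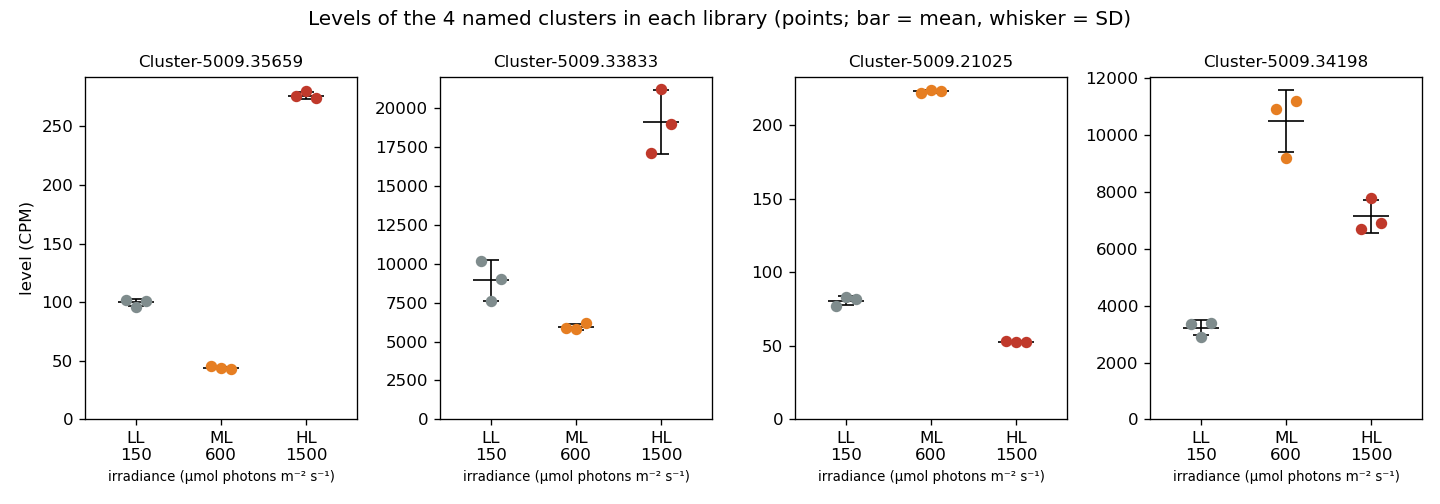
Points give the CPM of the 4 named clusters in each of the 9 libraries by irradiance, with the mean (bar) and SD (whisker, n = 3); each panel has its own axis from 0. In all panels the ML and HL libraries do not overlap, and Cluster-5009.34198 has its LL libraries lowest, at 2910 to 3400 CPM.

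Some clusters were counted in one light and had no count at all in the other. With at least 10 counts in every library of one group and 0 counts in every library of the other, 79 clusters were found in HL but not in ML and 104 in ML but not in HL. The most abundant of the former had a mean of 162 CPM in HL, at least 1090-fold higher than the 3 counts per library taken as the lowest detectable level, and 45.8 CPM in LL. The most abundant of the latter had 89.4 CPM in ML, at least 523-fold higher than that level in HL, and 77.8 CPM in LL. Most of these clusters were far less abundant, with medians of 3.98 CPM in HL and 1.68 in ML. The edgeR test called 76 of the 79 and 101 of the 104, which follows from how they were picked and supports nothing.

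These clusters stood out in the kind of their counts. All 79 of the clusters seen in HL, and 98 of the 104 seen in ML, had counts with decimals in at least one library, against 59.5% of all selected clusters. In LL, 25 of the 79 and 23 of the 104 had at least 10 counts in every library, and 5 and 13 had none in any. A count of exactly 0 can come from an estimate that gave all shared reads to a similar cluster, so 0 here means that none were assigned. Whether such assignment accounts for these clusters was not tested.

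Clusters whose counts were whole as deposited, with a tolerance of 0, in all 9 libraries, which are less open to such division, were called more often. Of 13268 such clusters, 73.2% were called, 4854 higher and 4852 lower in HL. Among the 19505 with decimals in some library it was 52.9%, with 5035 higher and 5284 lower. The whole-count clusters also had the smaller median standard error, 0.17 against 0.29 on the log2 scale, at median levels of 4.80 and 3.58 CPM in ML. They took 39.7% to 39.9% of the counts in ML and 42.0% to 42.5% in HL, where the groups did not overlap (exact two-sided permutation p = 0.1).

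The difference between strong and moderate light also ran along the identifiers of the clusters. The bins and zones used for this were chosen after the values were seen. An identifier consists of a leading and a second number, and what they mean is not stated in the sources used here. Without sequences, whether clusters of different numbers come from the same organism or kind of transcript could not be checked. The leading number was 5009 for 32437 of the selected clusters, and the second then ran up to 61469. Clusters at both ends of this range were mostly lower in HL. The median log2 fold change was −1.22 for second numbers below 5000, rose to 0.27 between 30000 and 35000, and fell again to −1.24 from 55000 to 60000. At the ends, below 10000 or from 50000 on, 733 clusters were higher and 2637 lower, which is 12.7% and 45.6% of 5786. In the middle, from 30000 to 40000, 3370 were higher and 1971 lower, or 41.8% and 24.4% of 8064. Without the clusters selected through one group alone, the ends had 637 higher and 1976 lower at a median of −0.75, and the middle 3279 and 1885 at a median of 0.23.

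Level followed the same course, since the median in ML was 1.81 CPM at the ends and 13.4 in the middle, but clusters of like level still differed. Within the middle quintile the median log2 fold change was −0.89 at the ends and 0.30 in the middle. The median at the ends was below 0 under all alternative settings run for it over all selected clusters, at values of −1.19 to −0.63, the latter with the trends on abundance and length removed. The middle moved to a median of 0.02 with library totals alone, with 2698 higher and 2533 lower. In sum the end clusters held 2.06% to 2.27% of the counts in ML, 1.61% to 1.76% in LL and 1.21% to 1.29% in HL, so that no 2 groups overlapped. The leading number was another one for 336 clusters, of which 64 were higher and 82 lower.

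**Figure D5:**
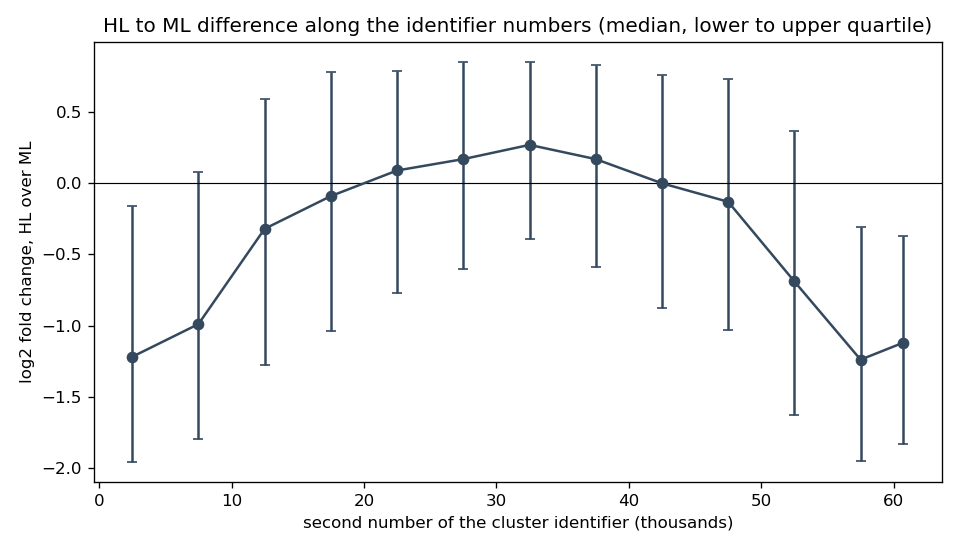
Points give the median log2 fold change of HL over ML, and whiskers the lower to upper quartile, for clusters in bins of 5000 of the second number in their identifier, for those with the leading number 5009. The median lies near −1.2 at both ends of the range and at 0.27 in the bin from 30000.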

How the data were processed

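Per the file headers, the authors deposited estimated counts and FPKM values for each library, and from 27.9% to 31.0% of the listed clusters have a count with decimals. DESeq 1.10.1 appears in the submitters' processing notes. Assembler, aligner, counter and reference: not given in the sources used here. None of the identifiers (0 of 76875) matched the gene table of the Dunsal1 assembly.

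The estimated counts were rounded. Clusters with at least 10 counts in 3 of the 9 libraries were fitted with edgeR 4.0.16 in R 4.3.3, with TMM factors and a robust quasi-likelihood model of group over 9 libraries, which share one estimate of the spread (6 residual degrees of freedom, common biological coefficient of variation 0.276). P-values were adjusted over all 34555 clusters. A standard error is the log2 fold change divided by the square root of F. A cluster at 0 in all libraries of a group was set to the fold against 3 counts per library, a floor that covers counting error only. Implied length was taken where FPKM reached 0.5, which gave one for 99.1% of clusters.

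On simulated data of 34555 clusters for HL against ML, 38 of 100 clusters changed 2-fold were recovered and 59 of 100 changed 4-fold, with 2 false calls. In the real data 58.7% of the fitted clusters were called, a far larger part than was changed in the simulation. Adjustment of p is stricter where few clusters differ, so these rates do not carry over to the reported calls. Libraries of a group had chi-square values of 6.36 to 9.87 per degree of freedom, so no library was a copy of another. The clusters, lists and tests were chosen with earlier results of these data known. The 4 named clusters followed the rule given with them. DESeq2 1.42.0 and limma 3.58.1 served as alternatives.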

Additional observations from a re-analysis of the deposited data

How the results depend on the processing

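Same-direction calls shared with the reported ones ranged from 85.6% (abundance and length trends removed, with 88 calls in the opposite direction) to 98.9% (DESeq2). This range covers the other scalings and tools, the fit without a filter and the left-out libraries. The stricter test against 1.5-fold and the settings with fewer clusters are apart. Of the reported calls on the clusters kept, 99.8% were shared with edgeR's own filter and 99.1% with a mean CPM of at least 1. Leaving out 1 library gave 18161 calls (without ML2) to 18818, with 938 to 1250 falls and 438 to 508 rises in the lowest quintile. Same-numbered ML and HL libraries did not deviate together (correlations of 0.013, −0.012 and −0.013). The labels do not say whether equal numbers mark a shared culture or batch, and such correlations cannot exclude one. With the replicate block, 9460 clusters were higher and 9506 lower, and 18713 of the 20025 calls were shared. DESeq2 gave no adjusted p for 58 clusters.

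With library totals alone, the median log2 fold change was −0.03 and −0.04 in the 2 highest quintiles, −0.10 under 500 bases and −0.20 from 500 to 1000, and 14 of the top 100 were lower. With upper-quartile factors it was −0.09 from 500 to 1000 bases. Limma on log2(FPKM + 1) gave medians of −0.03, −0.04, −0.11 and −0.15 for the same 4 classes as library totals, 2855 rises of 2-fold or more, 105 rises and 35 falls of 8-fold or more, 2357 falls in the lowest quintile and 14 in the top 100. With a pseudocount of 0.1 the medians were −0.03, −0.04, −0.14 and −0.20, with 2188 falls in the lowest quintile, 14 in the top 100 and 516 rises from 2500 bases on. With abundance and length trends removed, the median was 0.06 over all selected clusters, 0.04 in the middle quintile, 0.07 from 1000 to 2500 bases and 0.12 above, with 197 falls of 8-fold or more, 889 falls in the lowest quintile, 14 in the top 100 and 1316 rises from 2500 bases on. A mean CPM of at least 1 left 270 falls of 8-fold or more, 15 rises and 192 falls in the lowest quintile and 4094 uncalled intervals past 2-fold, with fewer clusters tested. The test against 1.5-fold called 5491 higher and 6613 lower (36.9%). Whole-count clusters alone gave 4854 and 4852, with 2231 and 3297 of 2-fold or more. Apart from those set by construction (fewer clusters, a stricter test, trends taken out), the cause was not tested. The median standard error of the log2 fold change was 0.59 in the lowest quintile and 0.07 in the highest.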
